A study of Homo sapiens with 4 samples.

Results

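The 10 genes described here are the CXC chemokine genes CXCL1, CXCL2, CXCL3, CXCL5, CXCL6 and CXCL8, the cytokine gene IL6, the CC chemokine genes CCL2 and CCL20, and PTGS2, which encodes the inducible cyclooxygenase. They were taken by name, and every listed ATAC-seq peak within 50 kb of their RefSeq spans was used. ATAC-seq marks open DNA by inserting sequencing adapters with the Tn5 transposase. The cells were 786-O, an established clear cell renal cell carcinoma line without functional VHL, treated for 24 h with DMSO as vehicle or with 5 µM ACSS2i, the inhibitor that the study directs at the acetyl-CoA synthetase ACSS2. There were 2 libraries per group and 4 in all, and the labels give no other genotype or agent; the question was which accessible regions differ after ACSS2i. A region is a set of overlapping peaks of the 4 libraries. The windows held 32 of 53572 regions, with 20 and 30 peaks in the DMSO lists (replicate 1, then 2) and 12 in each ACSS2i list.

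The 6 CXC chemokines bind the receptors CXCR2 and, for some, CXCR1, and draw neutrophils. Their genes arose by duplication and lie side by side on the long arm of chromosome 4. CXCL8, IL6, CCL2, CCL20 and PTGS2 are classical inducible targets of NF-kB, often together with AP-1 and C/EBP factors, and carcinoma cells can express them without immune cells. Of the lncRNAs in the domain, UMLILO is known for contacts with the chemokine promoters, and INKILN is known from inflamed smooth muscle.

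The bases before the start are shown because the gene-by-gene comparison of the CXC members turns on peaks over their starts. RefSeq (GRCh38.p14, the build of the peak lists) gave a start for 9 of the 10 members, all but CCL2. Each line holds the 250 bases before the start, 5′ to 3′ on the strand of the gene. Capitals mark matches, on either strand, to the NF-kB core GGANNTTCC, the AP-1 site TGANTCA, the C/EBP site TTGCNNAA or TATAAA. IL6, CXCL2, CXCL5, CXCL8 and CXCL3 are shown as the 5 members with the strongest DMSO peak over the start. CXCL1 and CXCL6 were added after their values were seen, because CXCL1 had no ACSS2i peak and CXCL6 had no peak at its start in any library.
IL6 (chr7:22726950-22727199, plus strand): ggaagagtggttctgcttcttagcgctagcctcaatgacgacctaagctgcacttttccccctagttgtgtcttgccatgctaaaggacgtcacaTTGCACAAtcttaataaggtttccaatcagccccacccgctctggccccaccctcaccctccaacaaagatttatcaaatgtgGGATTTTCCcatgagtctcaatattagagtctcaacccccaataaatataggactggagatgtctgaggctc
CXCL2 (chr4:74099196-74099445, minus strand): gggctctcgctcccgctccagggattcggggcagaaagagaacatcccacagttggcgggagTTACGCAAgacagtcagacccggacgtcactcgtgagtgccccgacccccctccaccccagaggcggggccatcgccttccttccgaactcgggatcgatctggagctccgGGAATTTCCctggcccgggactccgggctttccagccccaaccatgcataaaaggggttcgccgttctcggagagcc
CXCL5 (chr4:73998678-73998927, minus strand): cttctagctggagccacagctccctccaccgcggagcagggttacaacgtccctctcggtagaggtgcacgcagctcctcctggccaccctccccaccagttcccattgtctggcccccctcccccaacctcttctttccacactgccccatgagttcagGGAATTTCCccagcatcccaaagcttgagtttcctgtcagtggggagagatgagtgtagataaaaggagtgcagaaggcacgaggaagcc
CXCL8 (chr4:73740319-73740568, plus strand): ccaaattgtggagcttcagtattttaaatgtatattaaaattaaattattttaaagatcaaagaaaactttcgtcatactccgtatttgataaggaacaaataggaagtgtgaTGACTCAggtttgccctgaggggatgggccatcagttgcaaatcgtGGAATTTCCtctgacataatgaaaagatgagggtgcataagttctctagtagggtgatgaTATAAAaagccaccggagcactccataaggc
CXCL3 (chr4:74038690-74038939, minus strand): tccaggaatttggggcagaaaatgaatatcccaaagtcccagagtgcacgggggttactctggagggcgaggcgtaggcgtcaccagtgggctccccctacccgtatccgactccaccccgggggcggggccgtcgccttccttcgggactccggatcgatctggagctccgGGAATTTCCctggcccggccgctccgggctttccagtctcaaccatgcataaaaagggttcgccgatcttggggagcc
CXCL1 (chr4:73869143-73869392, plus strand): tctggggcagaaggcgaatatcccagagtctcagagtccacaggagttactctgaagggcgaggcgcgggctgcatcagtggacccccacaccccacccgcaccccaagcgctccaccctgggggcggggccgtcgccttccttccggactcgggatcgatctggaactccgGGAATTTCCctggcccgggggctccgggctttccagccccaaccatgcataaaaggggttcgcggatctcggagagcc
CXCL6 (chr4:73836428-73836677, plus strand): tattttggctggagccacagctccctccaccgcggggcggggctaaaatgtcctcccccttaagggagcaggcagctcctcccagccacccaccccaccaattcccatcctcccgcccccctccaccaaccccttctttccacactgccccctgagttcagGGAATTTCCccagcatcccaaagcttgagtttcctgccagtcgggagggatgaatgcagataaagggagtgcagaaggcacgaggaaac

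The NF-kB core was present in 7 of the 9 member promoters, all 6 CXC genes and IL6, against 3.84% of all 35116 RefSeq promoters. In the 6 CXC genes it had the same letters, GGAATTTCC, beginning between 77 and 91 bases before the start, and in IL6 it began at 72. Some of these promoters share sequence well beyond the motif and are not independent: the 250 bases were 85.3% identical between CXCL5 and CXCL6, 81.4% between CXCL1 and CXCL3, 73.3% between CXCL2 and CXCL3, and 71.4% between CXCL1 and CXCL2. Identity of CXCL1, CXCL2 and CXCL3 with CXCL5 and CXCL6 was lower, from 52.9% to 54.8%, and CXCL8 was 44.7% to 47.6% identical to the other 5, below its 51.8% with CCL20. The longest stretch shared letter for letter was 45 bases, between CXCL5 and CXCL6. How reads that fit more than 1 place were treated is unknown, and whether signal was exchanged between copies was not tested. The AP-1 site matched in CXCL8 alone (6.57% of all promoters), the C/EBP site in IL6, CXCL2 and PTGS2 (9.05%), and TATAAA in CXCL8, CCL20 and PTGS2 (10.7%). A match is a description of the letters and says nothing about binding.

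Accessible sites were spread over the whole CXCL domain in DMSO and were sparse in the ACSS2i lists. The domain ran over 458.6 kb of chromosome 4, from 73690569 to 74149195, and held 13 and 19 peaks in the DMSO lists, with 5 and 6 in the ACSS2i lists, replicate 1 being given first here and below. That is 16 ± 4.24 against 5.5 ± 0.707 (SD, n = 2 per group), a ratio of 0.344. The groups did not overlap, and the 2-sided exact permutation p was 0.333, the smallest that 2 against 2 libraries allow. Over all 5 windows the numbers were 25 ± 7.07 and 12 ± 0 (exact permutation p = 0.333), a ratio of 0.48, and in the whole genome 42495 ± 11029.5 and 19222 ± 3990.9 peaks, a ratio of 0.452. The fewer peaks in the windows thus came with fewer peaks everywhere. With 2 against 2 libraries this p is 0.333 whenever the groups do not overlap, whatever their spread. The labels do not say that replicates were separate cultures, so the spread between libraries may be technical.

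**Figure D1:**
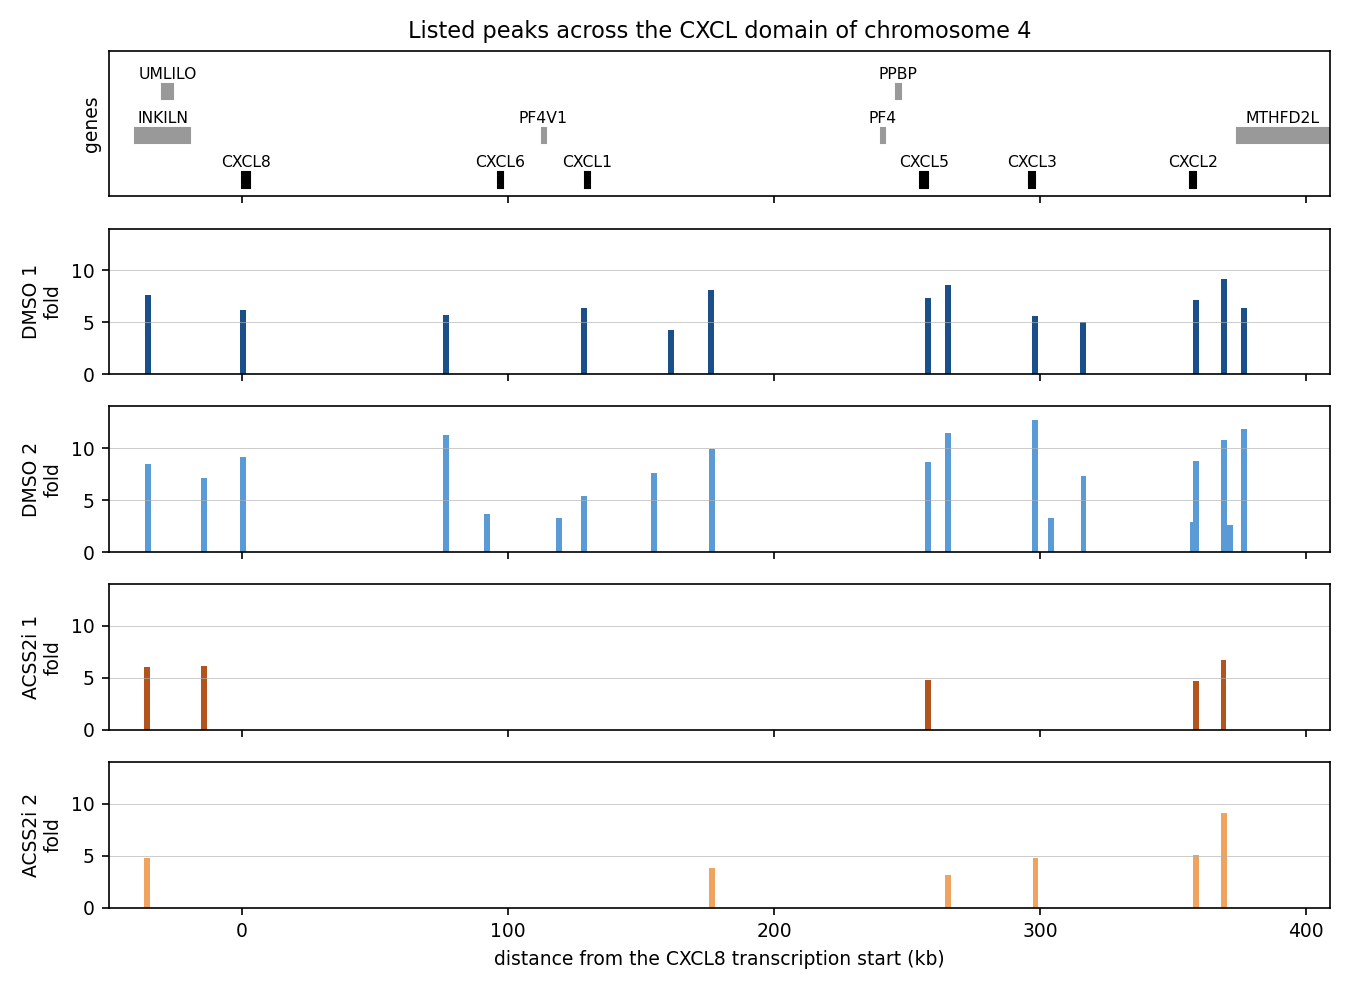
Peaks of each library across the CXCL domain, by distance in kb from the CXCL8 transcription start. Bar height is the fold of the strongest summit over local background in that library, black boxes are members and grey boxes other genes; the DMSO lanes hold 13 and 19 peaks and the ACSS2i lanes 5 and 6.

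Each peak has a fold, which is the authors' enrichment of the summit over the local background of the same library, and a percentile, that of its −log10 q within the list of that library. Lists of different length share no scale, so neither was tested between groups. The pileup, the number of fragments covering the summit, was recovered from the authors' fold and p and was exact to within 0.001 of every deposited −log10 p.

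At the starts of the CXC genes the peaks fell into 4 patterns. CXCL8 and CXCL1 were listed in both DMSO libraries and neither ACSS2i library, CXCL5 and CXCL3 kept one in a single ACSS2i library, CXCL2 had one in all 4, and CXCL6 had none.

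CXCL8 (chromosome 4, 73740569 to 73743716, plus strand), which encodes interleukin-8, had a peak over its start with DMSO folds of 6.14 and 9.10, at percentiles 54.7 and 51.4. The summit pileups were 23 and 24 fragments, and the summits lay 84 and 72 bases past the start. No ACSS2i list held a peak there, so the groups do not overlap in presence. CXCL1 (73869393 to 73871308, plus strand), a melanoma growth-stimulating chemokine, had folds of 6.37 and 5.38, percentiles 53.1 and 26.8 and pileups of 21 and 17 in DMSO. It likewise had no ACSS2i peak. A site that is not listed has no value. The lowest pileup listed at the genome background was 9 and 8 fragments in the DMSO libraries and 11 and 12 in the ACSS2i libraries, which is 4.37, 4.58, 4.75 and 3.79 times the background of the library. The CXCL8 pileups were 11.2 and 13.7 times the DMSO backgrounds and the CXCL1 pileups 10.2 and 9.73 times. These DMSO multiples do not carry over to ACSS2i. In the 13306 regions of all 4 libraries the median summit was 19.2 and 44.1 times the background with DMSO but 8.64 and 9.17 times with ACSS2i. How far below the ACSS2i limit CXCL8 and CXCL1 lay is not known.

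CXCL5 (73995642 to 73998677, minus strand), encoding a chemokine of epithelial cells, had DMSO folds of 7.36 and 8.70 and a fold of 4.82 in ACSS2i replicate 1, with pileups of 25, 29 and 15 fragments. It was absent from ACSS2i replicate 2, so the ACSS2i libraries differed from each other. CXCL3 (74036589 to 74038689, minus strand), a close copy of CXCL1 and CXCL2, showed the converse, with folds of 5.63 and 12.7 in DMSO and 4.80 in ACSS2i replicate 2 and none in ACSS2i replicate 1. The CXCL3 start was covered by 17 and 50 DMSO fragments and by 19 in ACSS2i replicate 2. The unscaled number of DMSO replicate 1 thus lay below that of the ACSS2i library. Relative to the background of each library the order was reversed, with 8.26 and 28.6 times in DMSO and 6.01 times in ACSS2i replicate 2. The DMSO libraries also placed it far apart, at percentiles 40.1 and 79.6. Both peaks also covered ends of lncRNA genes, LOC124900715 at CXCL5 and LOC105377275 at CXCL3.

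CXCL2 (74097040 to 74099195, minus strand), which encodes a neutrophil chemokine also called MIP-2 alpha, was the CXC gene with a start peak in every library. The DMSO folds were 7.10 and 8.78, the ACSS2i folds 4.70 and 5.04, and the pileups 31, 41, 15 and 20 fragments in the same order. Relative to background the CXCL2 pileups were 15.1 and 23.5 times with DMSO and 6.48 and 6.32 times with ACSS2i. In the 13306 regions of all 4 libraries the median summit was 19.2 and 44.1 times against 8.64 and 9.17 times. The lower ACSS2i values are thus no trait of CXCL2. A second, weak peak over the far end of CXCL2 was listed in DMSO replicate 2 alone, at percentile 2.84. CXCL6 (73836678 to 73838760, plus strand), the partner of CXCL5 in sequence, had no peak within 1000 bp of either end, and its nearest was a weak one in DMSO replicate 2, 3.87 kb before the start, at percentile 4.98.

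**Figure D2:**
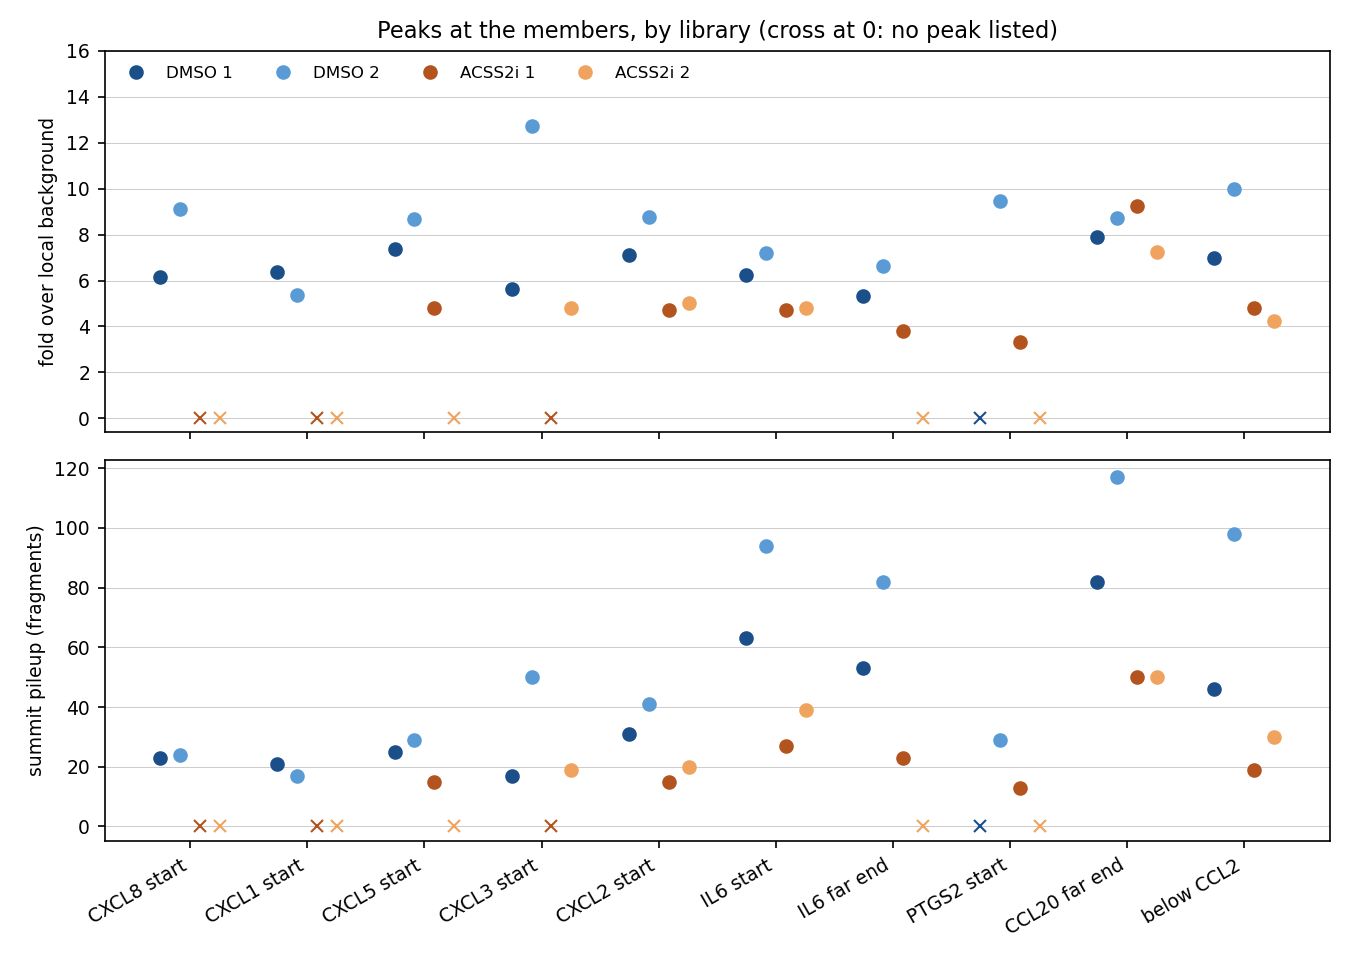
Fold over local background (upper panel) and summit pileup in fragments (lower panel) of the peak at each member, with 1 point per library and a cross at 0 where no peak was listed. CXCL8 and CXCL1 carry crosses for both ACSS2i libraries, while CXCL2, the IL6 start, the CCL20 far end and the site below CCL2 carry 4 points.

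Between the genes, the domain held 14 regions away from the ends of the members, 7 of them in both DMSO libraries. The strongest by far lay 9.95 kb before CXCL2 (74109146 to 74110307), between CXCL2 and MTHFD2L, an enzyme gene of mitochondrial folate metabolism, and was listed in all 4 libraries. Its folds were 9.11 and 10.7 with DMSO against 6.69 and 9.08 with ACSS2i, its percentiles 97.6, 94.7, 83.4 and 98.0, and its pileups 69, 108, 26 and 50 fragments. The fold of ACSS2i replicate 2 was close to that of DMSO replicate 1. Within its own list the site stood lowest in ACSS2i replicate 1, at percentile 83.4. The other distal region of all 4 libraries (73704481 to 73705868) lay inside the span of INKILN, 34.7 kb before CXCL8 and 4.48 kb from UMLILO. Its folds were 7.67, 8.44, 6.03 and 4.81 and its percentiles 80.7, 69.0, 73.3 and 49.8.

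Besides the 2 in all 4 libraries, 3 of the 7 distal regions of both DMSO libraries (42.9%) had no ACSS2i peak. In the genome the share was 33.5% of all regions of both DMSO libraries, gene ends included. With 7 regions this is no result about the domain. The strongest of the 3 (74116886 to 74117503) lay inside MTHFD2L, 17.7 kb before CXCL2, with folds of 6.32 and 11.9 and pileups of 27 and 54 fragments. A region 19.2 kb before CXCL6 (73816777 to 73817434) had folds of 5.67 and 11.3, and one 17.8 kb before CXCL3 (74056444 to 74057316) had 5.06 and 7.28. The remaining 2 kept a weak peak in ACSS2i replicate 2: the region 45.2 kb past CXCL1 (73916496 to 73917845), with folds of 8.13 and 9.90 in DMSO and 3.84 in ACSS2i, and the region 6.94 kb before CXCL5 (74005618 to 74006462), with 8.56, 11.4 and 3.12. That last ACSS2i peak stood at percentile 2.67, at the lower limit of its list. Another 7 regions were listed in 1 DMSO library alone, 6 of them in replicate 2, which had the longest list; 1 of the 7 was the far end of CXCL2. A region 14.1 kb before CXCL8 (73726067 to 73726479) was in DMSO replicate 2 and ACSS2i replicate 1, with folds of 7.09 and 6.17.

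The strongest sites of the windows, on chromosome 4 and elsewhere, were listed after ACSS2i too. Of the 7 member regions above percentile 75 in both DMSO libraries, 0 lacked an ACSS2i peak, beside 0.844% of all such regions. Presence of strong sites is thus no trait of the genes outside chromosome 4. IL6 (chromosome 7, 22727200 to 22731998, plus strand), which encodes an inflammatory cytokine that signals through IL6ST, had a wide peak over its start in all 4 libraries. Folds were 6.25 and 7.21 with DMSO against 4.73 and 4.80 with ACSS2i, and pileups 63, 94, 27 and 39 fragments. Its local background was high in every library. It was 9.24 and 12.2 fragments in DMSO against genome backgrounds of 2.06 and 1.75. In ACSS2i it was 4.92 and 7.33 against 2.32 and 3.16. The fold thus understates the fragment number there in both groups. The peak also overlaps the antisense lncRNA IL6-AS1, and ATAC-seq does not tell the genes apart. A second peak near the far end of IL6 (22731003 to 22731560) had folds of 5.33 and 6.62 in DMSO and 3.80 in ACSS2i replicate 1, and was not listed in ACSS2i replicate 2.

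CCL2 (chromosome 17, 34255285 to 34257203), whose product attracts monocytes through CCR2, had no peak within 1000 bp of either end in any library. The nearest region (34252057 to 34253216) ended 2.07 kb below the lower coordinate of the span and was listed in all 4 libraries. As background, an upstream enhancer with NF-kB sites is a known control element of this gene; whether this region is that element was not tested. The region had DMSO folds of 6.99 and 9.97 and ACSS2i folds of 4.79 and 4.24, with pileups of 46, 98, 19 and 30 fragments. Relative to background its pileups were 22.4 and 56.1 times with DMSO and 8.20 and 9.48 times with ACSS2i. In the 13306 regions of all 4 libraries the median summit was 19.2 and 44.1 times against 8.64 and 9.17 times. The lower ACSS2i values are thus no trait of CCL2. A weaker region at 34291860 to 34292294, with folds of 5.56 and 6.55, had no ACSS2i peak.

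CCL20 (chromosome 2, 227813842 to 227817556, plus strand), the ligand of CCR6, had no peak at its start but 3 strong regions beyond its far end, each in all 4 libraries. The nearest (227817939 to 227819545) began 383 bp past the gene, with DMSO folds of 7.90 and 8.73, ACSS2i folds of 9.26 and 7.22, and pileups of 82, 117, 50 and 50 fragments. Its folds overlapped between the groups, and its percentiles were 98.1, 93.4, 99.1 and 95.9. The second (227853156 to 227854395, 35.6 kb past the gene) had folds of 8.81, 11.8, 4.93 and 6.13. The third (227862737 to 227863766, 45.2 kb past) had 8.55, 11.8, 3.57 and 3.48, its percentiles being 90.7 and 87.0 with DMSO but 19.7 and 27.2 with ACSS2i. The 3 neighbours thus differed in how strong they were within the ACSS2i lists.

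PTGS2 (chromosome 1, 186671791 to 186680423, minus strand), which starts prostaglandin synthesis from arachidonic acid, had the least accessible window. A peak over its start that reached the antisense lncRNA PACERR was listed in DMSO replicate 2 (29 fragments, 9.44-fold). ACSS2i replicate 1 had a narrow peak within the same region (13 fragments, 3.32-fold), which began 32 bp before the start without covering it and ended before PACERR. Each group thus had 1 library with a peak at this end and 1 without. The only region of the windows that no DMSO list held lay here, 34.5 kb past the far end of PTGS2, in ACSS2i replicate 2 at percentile 2.67.

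As counts, the members stood close to the genome. Of the 19 window regions that both DMSO lists held, 6 (31.6%) had no ACSS2i peak, against 33.5% of the 31506 such regions in the genome, and 8 (42.1%) were in all 4 libraries, against 42.2%. In the opposite direction 0 of 8 regions in both ACSS2i libraries lacked a DMSO peak, against 0.0897% of the 13381 such regions in the genome. For the CXCL domain alone the count without an ACSS2i peak was 5 of 12 (41.7%) and that in all 4 was 3 of 12 (25%). By gene ends, meaning a peak within 1000 bp of either end of the span, 7 members had one in both DMSO libraries. Of these, 2 (28.6%), CXCL8 and CXCL1, had none in ACSS2i, against 18.9% of 10468 protein-coding genes, and 3 (42.9%), CXCL2, IL6 and CCL20, had one in all 4, against 58.0%. With numbers this small a share a few regions off the background is no result about the members.

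Single libraries moved these counts. Without DMSO replicate 1 the regions without an ACSS2i peak numbered 15 of 30 in the windows and 11 of 19 in the domain (genome 55.9%), and without ACSS2i replicate 2 they numbered 9 of 19 and 8 of 12 (genome 52.2%). CXCL8 and CXCL1 were without an ACSS2i gene-end peak whichever library was left out. That follows from the full lists, where neither ACSS2i library had one, and is no check of these genes. CXCL5 joined them without ACSS2i replicate 1, CXCL3 without ACSS2i replicate 2. With the lists shortened to equal length, 16400 peaks each by −log10 q, 2 of 10 window regions were without an ACSS2i peak (genome 6.41%). The one 17.7 kb before CXCL2 also lacked it in the full lists, whereas the one 6.94 kb before CXCL5 lacked it because its weak peak in ACSS2i replicate 2 fell outside the shortened list. At that length the gene-end count was 0 of 2 (genome 5.27%), since the peaks of CXCL8 and CXCL1 ranked below that length in DMSO replicate 2.

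Strength in DMSO and presence in ACSS2i went together in the genome and among the members. By the lower of the DMSO percentiles, no ACSS2i peak was listed for 76.7% of all regions of the DMSO pair when it was 0 to 25, 47.4% from 25 to 50, 14.6% from 50 to 75 and 0.844% above 75. The member regions numbered 0, 5, 7 and 7 in these bins, and 0, 4, 2 and 0 of them had no ACSS2i peak. In the middle bins the member counts, 4 of 5 and 2 of 7, were above the shares of all regions, on few regions. CXCL1 fell in the second bin and CXCL8 in the third. All 7 member regions above 75, at IL6, CCL2, CCL20 and before CXCL2, had a peak in at least 1 ACSS2i library.

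**Figure D3:**
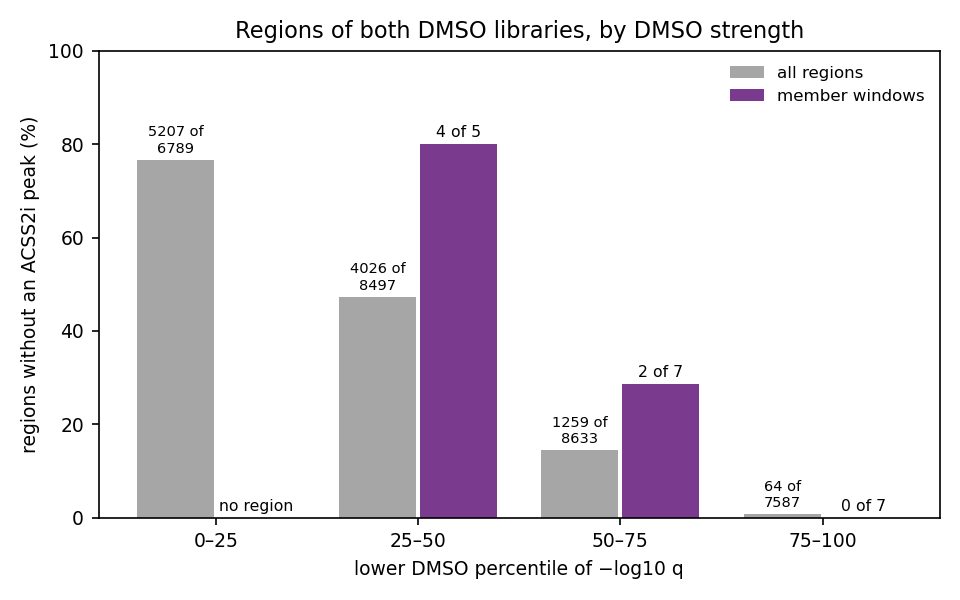
Share of regions without an ACSS2i peak (percent) among regions that both DMSO lists held, by bins of 25 points of the lower DMSO percentile of −log10 q. Grey bars are all regions and purple bars the member windows, with counts above each bar; the shares of all regions run from 76.7% down to 0.844%, and the member bars rest on 7 regions or fewer.

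The overall signal of the libraries moved with the groups. In the 13306 regions of all 4 libraries summits reached, at the median, 19.2 and 44.1 times the background with DMSO but 8.64 and 9.17 times with ACSS2i. In the 8 member regions among them the medians were 27.0, 54.9, 9.71 and 10.4 times. The genome backgrounds were 2.06, 1.75, 2.32 and 3.16 fragments, so the ACSS2i libraries did not have the lower background. The part of this genome-wide difference in the missing chemokine peaks was not tested, and with 2 libraries per group it cannot be told apart from the treatment.

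Ranks within the 13306 shared regions use the same set in every library and so take out the length of the lists. On that scale 3 of the 8 member regions (37.5%) ranked lower in both ACSS2i libraries than in both DMSO libraries, against 16.5% of all shared regions, and 0 of 8 ranked higher in both, against 18.1%. The other 5 did neither. The median change of the mean percentile from DMSO to ACSS2i was 1.73 over the 8 and 0.166 over all shared regions. With 8 regions these shares are no result about the members. The 3 lower regions were the site below CCL2 and the 2 more distant sites past CCL20. The site below CCL2 stood at percentiles 61.8 and 70.9 with DMSO against 44.0 and 40.1 with ACSS2i. The site 35.6 kb past CCL20 stood at 93.0 and 87.1 with DMSO against 56.6 and 75.6 with ACSS2i. The site 45.2 kb past CCL20 stood at 76.1 and 54.7 with DMSO against 13.1 and 10.5 with ACSS2i. Its mean percentile went from 65.4 to 11.8, and 23 of the 13306 regions (0.173%) had a larger drop. This site is singled out after its values were seen. The starts of CXCL2 and IL6, the only member starts among the shared regions, did not separate the groups: CXCL2 had 36.7 and 11.4 with DMSO against 30.6 and 32.1 with ACSS2i, and IL6 75, 47.7, 62.3 and 64.9, both with the ACSS2i values inside the DMSO range. The site at the far end of CCL20 (95.1, 75.8, 98.9 and 93.2) and the one before CXCL2 (93.7, 80.4, 79.8 and 96.8) kept high ranks. The DMSO libraries also differed between themselves, most at the INKILN site, with 53.3 and 16.1 against 67.8 and 28.9 in ACSS2i.

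**Figure D4:**
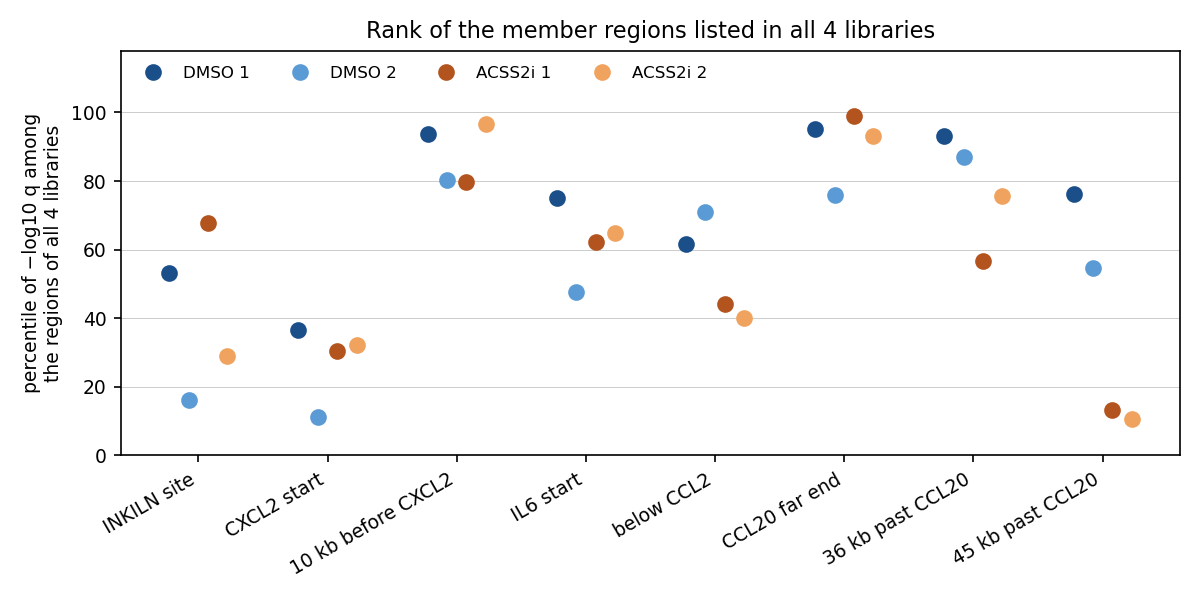
Percentile of −log10 q of the 8 member regions present in all 4 libraries, ranked among the 13306 regions shared by all 4, with 1 point per library. Both ACSS2i points lie below both DMSO points at the site below CCL2 and at the 2 sites farther past CCL20, where the last stands at 13.1 and 10.5.

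Other genes of the same pathways, from a list of 47 that holds none of the members, were listed in both DMSO libraries in 15 cases, by gene-end peaks. Of these 15, 3 had none in ACSS2i and 10 had one in all 4 libraries, beside 18.9% and 58.0% of protein-coding genes. Among 16 further chemokine genes 14 had none in any library, including CXCL9, CXCL10, CXCL11, PF4 and PPBP, and CX3CL1, a membrane-bound chemokine, had one in all 4. Of all 20033 protein-coding genes, 12090 had one in at least 1 library. Of 12 cytokine genes, CSF2, IL15 and TNFSF10 had one in all 4, and IL1A, IL1B, LIF, IL33 and CSF3 in none. The receptor genes CXCR1, CXCR2, CCR2 and CCR6 had none, while the receptor subunits IL6R and IL6ST, which receive the IL-6 signal, had peaks in all 4. In the prostaglandin list of 8 genes, PTGES, the inducible prostaglandin E synthase, PTGER2, a receptor of prostaglandin E2, and HPGD, which breaks prostaglandins down, were the 3 without an ACSS2i peak among 6 listed in both DMSO libraries, and PTGES2, PTGES3 and PTGER4 had one in all 4. The libraries listed gene-end peaks at 16 and 20 of the 47 genes in DMSO and at 12 and 10 in ACSS2i. Over all 20033 protein-coding genes they listed them at 10542 and 12010 in DMSO and at 6518 and 8160 in ACSS2i. Fewer were thus listed everywhere, and the counts are no result about these pathways.

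The peaks fit the label of the line in part. KRT8, KRT18 and VIM had gene-end peaks in all 4 libraries and PAX8, the defining renal marker, in all but ACSS2i replicate 1, whereas PAX2 and CA9 had none. Of the immune markers described, PTPRC, CD3E and LYZ had none in any library, and CD14 and SPI1 had one in DMSO replicate 2 alone. The endothelial markers numbered 0 of 4 in each library. Of the 2 fibroblast genes COL1A1 had a peak in all 4 and PDGFRB in both DMSO libraries.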

How the data were processed

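Peak lists of 4 ATAC-seq libraries were used as deposited, called separately per library. The submitters' processing notes name Trimmomatic 0.38, Bowtie2, SAMtools 1.9, Picard 2.18.26, MACS2 2.1.2 and hg38; options, Tn5 shift, duplicate handling and the filter on the lists are not stated there. The deposited fold is the authors' ratio of the summit to local background. The deposited −log10 p and −log10 q hold the caller's p-value and q-value, with −log10 q at least 2. The deposited score is a rescaled −log10 q and was not used. The summit offset was deposited in bp.

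Each interval was taken as 1 peak, with the values of its strongest summit. Peaks overlapping by 1 bp were merged into regions. Windows were RefSeq spans (GRCh38.p14) with 50 kb on each side, the 6 chromosome 4 genes forming 1 domain. Whole-number pileups were solved from fold and −log10 p, after a check on simulated data. No read totals were used, so depth is known only as genome background. Library counts were compared by 2-sided exact permutation; other counts have no test. Python 3.11.15, pandas 2.3.3 and Biopython 1.88 were used.

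The genes and lists were chosen with earlier results of these data known. An immune marker of the lists is not reported here. All members were named; regions were described one by one if in all 4 libraries, in both libraries of 1 group alone, or among the 5 strongest in a window in DMSO. Weaker regions described beside these were added after their values were seen. Alternatives were other windows, a stricter q, lists of equal length, a larger overlap, each library left out, and the replicate block.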

Additional observations from a re-analysis of the deposited data

How the results depend on the processing

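Read depth is unknown, 2 libraries per group allow no exact p below 0.333, and an unlisted site has no value. The ratio of peaks in the windows (0.48) stayed below 1 under every alternative. It was 0.425 and 0.479 with windows of 25 and 100 kb, 0.409 at −log10 q of at least 5, and 0.4 to 0.6 with 1 library left out. At −log10 q of at least 5 the whole lists also differed, with 26933 and 42607 DMSO peaks against 10306 and 14748. With lists of equal length the ratio was 0.778. There the windows held 15 and 12 DMSO peaks against 12 and 9, so the groups met at 12 (exact permutation p = 0.667). With the replicate block, the mean ratio within the pairs of equal number was 0.5 (exact p = 0.5, the smallest for 2 pairs). The labels do not say what a number shares, and the correlation of the deviations of equal-numbered libraries over shared regions was 0.135.

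Regions in both DMSO libraries and no ACSS2i library numbered 6 in the windows, 2 with lists of equal length and 7 to 15 with 1 library left out. The genome shares were 33.5%, 6.41% and 39.0% to 55.9%. In the CXCL domain they numbered 5, then 2 at equal length and 6 to 11 with 1 library left out: 11 without DMSO replicate 1 and 8 without ACSS2i replicate 2. The windows gave 15 without DMSO replicate 1. The opposite count was 0, and 1 of 12 without ACSS2i replicate 1 (range 0 to 1, genome 5.42%), the weak site past PTGS2. The members that had a gene-end peak in DMSO alone numbered 2, then 0 at equal length and 2 to 3 with 1 library left out. The genome shares were 18.9%, 5.27% and 19.4% to 38.1%. With a 500 bp window CCL20 joined CXCL8 and CXCL1, since its ACSS2i peaks began 518 and 539 bp past the gene and its DMSO peaks 383 and 413 bp. That made 3 of 7, beside 19.7% of protein-coding genes. Counting the transcription start alone left 2 of 6 (genome 17.8%). Lists of equal length left fewer regions to count, 10 in place of 19 in the windows. Fewer libraries are needed for a call when 1 is left out, so those counts were as high or higher. The cause of the other changes was not tested.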
